A study of Mus musculus with 20 samples.

Results

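The enzymes that make and break down heme were followed in mouse liver through 9 genes, namely Alas1, Alad, Uros, Urod, Cpox, Ppox and Fech for synthesis and Hmox1 and Blvrb for breakdown. They were taken as every probe set of the expression table whose platform symbol is 1 of these names, which gave 20 of the 45037 probe sets and 9 of the 18193 genes with a symbol. Each value is a log2 RMA intensity, in which 1 unit is a doubling of signal, and levels of different genes cannot be ranked against each other on an array. The livers were those of CD-1 males, from an outbred stock, with 5 separate mice and 5 arrays in each of 4 groups. Treated mice received phenobarbital sodium (PB) at 80 mg/kg/day by mouth for 28 days or for 90 days. Control mice received for the same 28 or 90 days the carrier alone, 0.5% methylcellulose 15 (CMC in the labels), counted as 0 mg/kg/day. All mice were given 10 mL/kg once a day, and the left lateral lobe was frozen 1 day after the last dose. The age of the mice is not given in the sources used here.

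Heme is an iron-bearing ring that sits in hemoglobin, in the cytochromes of respiration and in the cytochrome P450 enzymes that oxidise drugs. Its synthesis starts in mitochondria, where ALAS1, the rate-limiting enzyme of the liver, joins glycine to succinyl-CoA. ALAD, UROS and UROD then act in the cytosol, and CPOX, PPOX and FECH finish the ring in mitochondria, where FECH inserts the iron. HMOX1, the inducible heme oxygenase, opens the ring to biliverdin, which the biliverdin reductases turn into bilirubin. Heme itself lowers ALAS1, so that a liver building more P450 can draw down heme and call for more ALAS1. Phenobarbital is a textbook inducer of P450 genes through the constitutive androstane receptor, and induction of ALAS1 by such drugs is what provokes attacks in acute porphyria.

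The question put to these genes was whether their transcripts differed between PB and vehicle livers after 28 days, after 90 days, and between these durations. None of the 9 genes was called in any of these comparisons at an adjusted p under 0.05 (limma, Benjamini-Hochberg over 16054 genes). At 28 days 0 of 9 were called against 0.0498% of all genes tested, and at 90 days 0 of 9 against 0.143%. Averaged over both durations 0 of 9 were called against 0.212%, and the difference between the durations gave 0 of 9 and 0% of all genes. The lowest unadjusted p of a member was 0.0501 on average, for Alas1, and 0.0759 for the difference between the durations, for Alad. With calls this rare, 0 of 9 lies near the background. Without adjustment, p was under 0.05 for Alad alone at 28 days, where it was lower, beside 1.03% of all genes lower and 1.83% higher at that level. At 90 days it was under 0.05 for no member, beside 1.38% of all genes lower and 3.15% higher. The same arrays did carry the drug's response: Cyp2b10, the P450 gene classically induced by PB, was higher by 4.90 ± 0.62 log2 units (SE) at 28 days and by 5.88 ± 0.62 at 90 days, with adjusted p of 0.000572 and 2.79e-05 in the limma fit.

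The signs of the changes were not the same at both durations, although no difference between the durations passed the test. At 28 days 8 of the 9 changes lay below 0, against 50.4% of all genes, with a median of -0.16 beside -0.0016 over all genes. At 90 days 4 of 9 lay below 0, against 43.8% of all genes, with a median of 0.06 beside 0.03. Only Fech was above 0 at 28 days, and Alas1, Cpox, Fech and Blvrb were below 0 at 90 days. Most of these changes were smaller than the spread between mice, so their signs are given as a description. Hepatocyte markers, which the labelled tissue carried on every array, also had mostly negative signs, although 0 of 9 tested were called: 9 of 9 lay below 0 at 28 days, with a median of -0.07, and 8 of 9 at 90 days, with a median of -0.17. Their mean level per array ranged from 12.63 to 13.32 in the vehicle mice and from 11.74 to 13.06 in the PB mice at 28 days, and from 13.07 to 13.34 and from 12.17 to 13.52 at 90 days. The lowest means at each duration were those of 28-day PB replicate 5 and 90-day PB replicate 3. The part of these markers in the changes of the heme genes was not tested. In none of the 9 genes did all treated mice lie apart from all vehicle mice, whereas 0.355% of all genes were separated upward and 0.187% downward at 28 days, and 0.635% and 0.43% at 90 days.

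**Figure D1:**
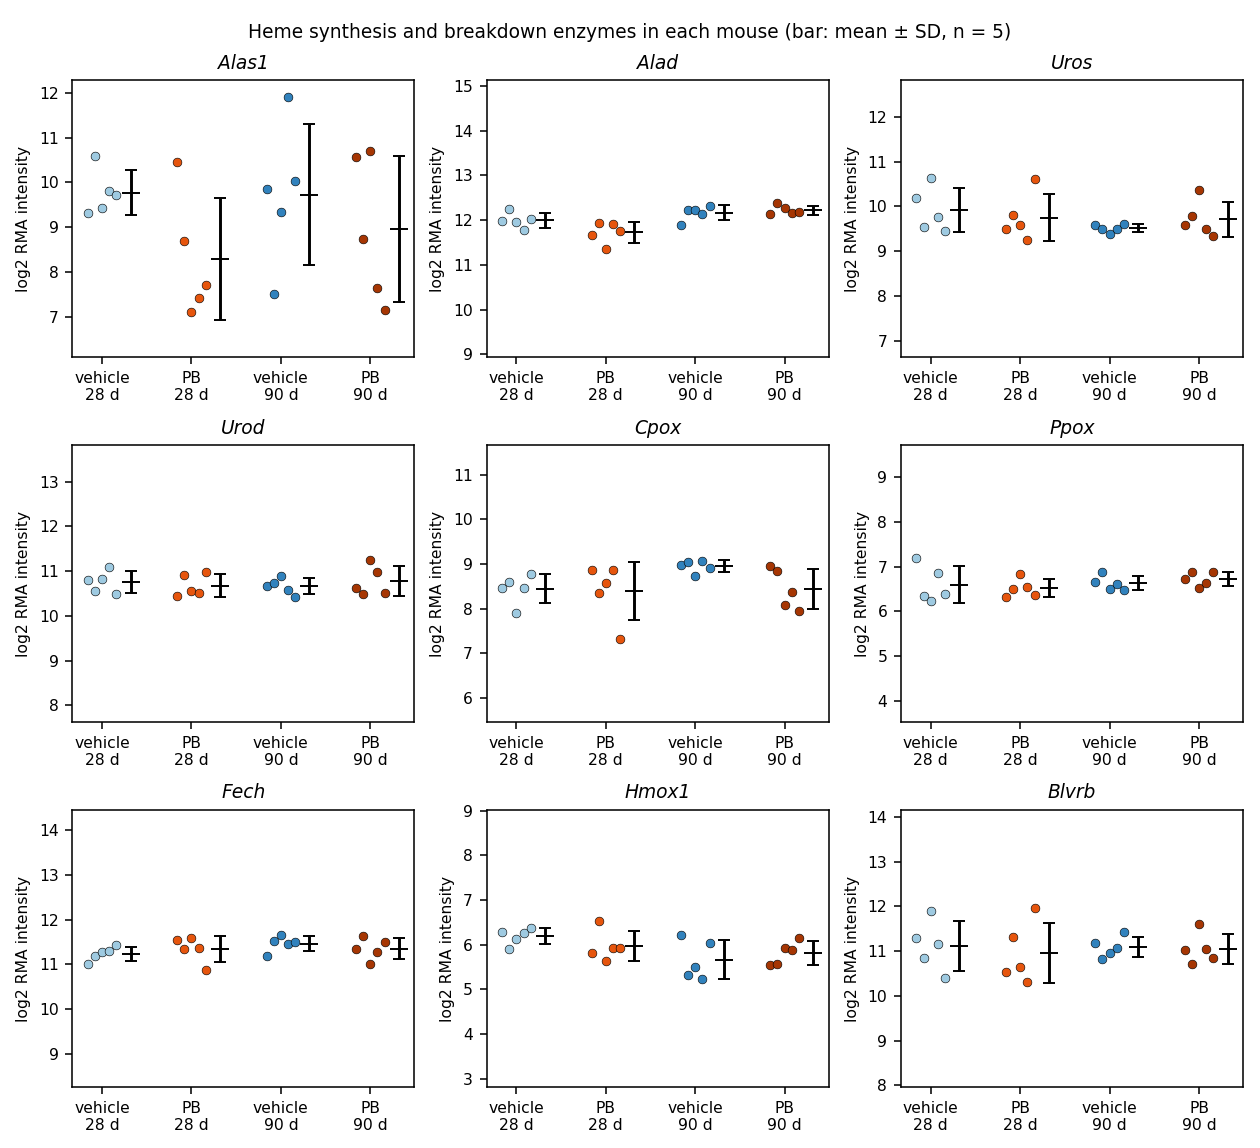
Log2 RMA intensity of the 9 heme genes in each of the 20 mice (points), with the mean and SD of the 5 mice of each group beside them; every panel spans the same number of log2 units. Alas1 is the gene with the widest spread, from 7.10 to 11.92, and in every panel the treated and vehicle mice overlap.

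Alas1 had the largest difference in mean of the 9 genes, and its mean in treated livers was below that of the vehicle livers, not above it. Its level in the 28-day vehicle mice, from replicate 1 to replicate 5, was 9.33, 10.58, 9.43, 9.82 and 9.71. In the 28-day PB mice it was 10.47, 8.70, 7.10, 7.42 and 7.71. Thus 4 of the 5 treated mice lay below every vehicle mouse, while the remaining one, replicate 1, stood with the higher controls. The means were 9.77 ± 0.49 and 8.28 ± 1.36 (SD, n = 5), a change of -1.49 ± 0.77 log2 units (SE; 95% confidence interval -3.09 to 0.11) or 0.355 times the vehicle level. This missed the threshold, with an unadjusted p of 0.0656 and an adjusted p of 0.9999 in the limma fit.

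At 90 days Alas1 was scattered in both groups. The vehicle mice read 9.86, 7.50, 9.34, 11.92 and 10.03, and the PB mice 10.57, 8.74, 10.71, 7.63 and 7.16. One treated mouse lay below all vehicle mice, none lay above them, and the vehicle group alone ranged over 4.41 log2 units. The change was -0.77 ± 0.77 (SE; 95% confidence interval -2.37 to 0.83; limma adjusted p = 0.817), or 0.588 times the vehicle level, and it ran from -1.32 without vehicle replicate 2 to -0.22 without vehicle replicate 4. Over both durations together Alas1 changed by -1.13 ± 0.54, with a 95% interval of -2.26 to 0.00065 and a limma adjusted p of 0.720. The difference between its 90-day and its 28-day change was 0.73 ± 1.09, with a 95% interval of -1.54 to 2.99, so the data do not settle whether the duration mattered. In the vehicle mice alone its mean moved by -0.04 ± 0.77 from 28 to 90 days.

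The mouse-to-mouse spread is what set Alas1 apart from the other members. Its SD within groups was 1.35 log2 units, at percentile 99.8 of all genes tested, while the other 8 members lay between 0.18 for Alad, at percentile 11.7, and 0.48 for Blvrb, at percentile 82.2. The spread was narrow in the 28-day vehicle mice (SD 0.49) and wider in the other 3 groups, between 1.36 and 1.64. A second probe set, 1455282_x_at, gave nearly the same pattern mouse by mouse. In the 28-day vehicle mice it read 6.52, 7.19, 6.43, 6.59 and 7.11, and in the 28-day PB mice 7.67, 6.29, 4.58, 4.74 and 5.30. Its changes were -1.05 at 28 days and -0.53 at 90 days, and over the 20 arrays it followed the first probe set with r = 0.98, a description over arrays that share both probe sets. The low and the high readings thus appear in both probe sets, of which the second is of the _x_at kind, whose probes can also match other transcripts. Because the tissue was whole liver, fewer cells of a type and less RNA per cell cannot be told apart for this or any other gene.

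**Figure D2:**
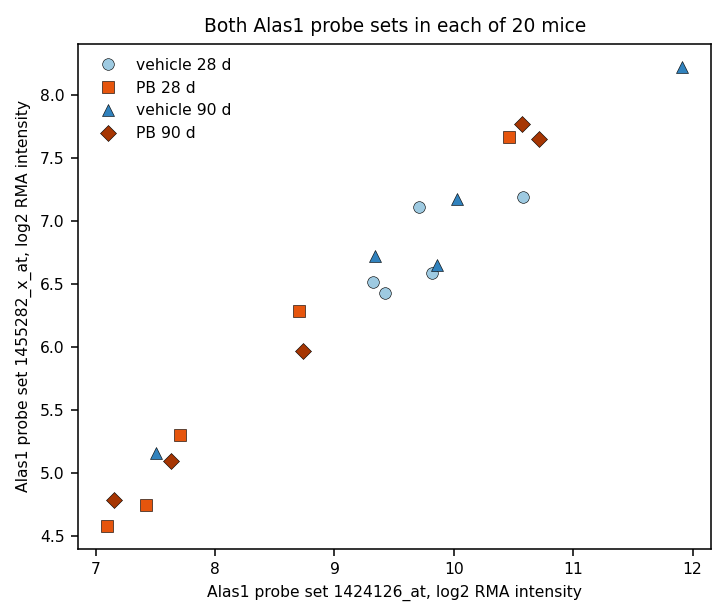
Log2 RMA intensity of Alas1 in each of 20 mice on probe set 1424126_at (horizontal axis) and on 1455282_x_at (vertical axis), with a symbol for each group. The points fall along 1 line. The lowest 3 readings of the first probe set, at 7.10, 7.16 and 7.42, are from PB mice, and the next, at 7.50, is from 90-day vehicle replicate 2.

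The mice with low Alas1 could not be matched to the level of a regulator. Over the 20 arrays its correlation was computed with 12 regulators of heme genes, among them Bach1 (the heme-sensing repressor of Hmox1), Ppargc1a (the coactivator PGC-1α, which raises Alas1 in fasting), Nr1d1 (REV-ERBα of the circadian clock) and Nr1i3 (the constitutive androstane receptor itself). Of the 12, 0 passed after Benjamini-Hochberg adjustment of permutation p-values, with r between -0.42 for Mafk and 0.42 for Bach1. For Nr1i3 r was 0.03 and rho 0.12. In the 10 treated mice the correlation of Alas1 with Cyp2b10 was r = 0.08 and rho = -0.09 (permutation p = 0.868 and 0.814), and of the 9 members 0 passed against Cyp2b10 after adjustment. The 5 genes most like Alas1 over the 20 arrays were Plk3 and Phf6 with r = 0.80, Resf1 with r = 0.80, and Arf4 and Rrs1 with r = 0.78, picked as the highest of all tested genes and given as a description.

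The promoter of Alas1 is shown because nuclear respiratory factor 1, encoded by Nrf1, is a known activator of this gene through a GC-rich palindrome. Sequences are RefSeq's on build GRCm38.p6, and windows ran from 250 bases before to 50 bases after a gene's start. Of the members 7 genes had 11 such windows; Fech and Hmox1 had no entry. This palindrome of 10 letters, in capitals in the line that follows, reads the same on both strands. It was found in Alas1 alone of the members, at chr9:106247906-106247935 on the minus strand.
Alas1: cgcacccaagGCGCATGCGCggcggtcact
It occurs in 0.971% of the 32851 windows of all genes. The E-box CACGTG, also a palindrome and found in 7.15% of windows, occurred in 4 windows of 3 members. Alad has 2 of these windows, at chr4:62520151-62520180 and chr4:62519920-62519949, and the others are those of Urod at chr4:116994445-116994474 and of Uros at chr7:133709516-133709545, all on the minus strand.
Alad, outer: gctccgaatgccCACGTGgaccccctcggg
Alad, inner: ccgccccgccccCACGTGggcttgcgcttt
Urod: cactggatcggtCACGTGgttctcaatatg
Uros: CACGTGtgctttctcacctcgtccacgatt
The antioxidant response motif TGACNNNGC, searched on both strands, was in none of the 11 member windows and in 12.4% of all windows. A match of letters is a description of the window and not a site shown to be used. In these livers Nrf1 and Alas1 had r = -0.12 over the 20 arrays.

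Alad, which joins 2 molecules of aminolevulinic acid to porphobilinogen, was the member with the smallest p at 28 days. Its 28-day vehicle mice read 11.99, 12.25, 11.96, 11.77 and 12.03, and its PB mice 11.68, 11.93, 11.34, 11.92 and 11.76. The groups overlapped, with 3 of the 5 treated mice below every vehicle mouse. The change was -0.27 ± 0.13 (SE; 95% confidence interval -0.54 to -0.01), with an unadjusted p of 0.0423 and an adjusted p of 0.9999 in limma. At 90 days it was 0.06 ± 0.13, and the difference between the durations, 0.34 ± 0.18, had an unadjusted p of 0.0759 and an adjusted p of 0.9999. The gene's second probe set, 1457306_at, gave -0.41 at 28 days and -0.55 at 90 days, so the probe sets differ in sign at 90 days.

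Uros and Urod, the enzymes that close the tetrapyrrole ring and trim its side chains, did not pass the test at either duration. Uros was -0.17 ± 0.25 at 28 days and 0.20 ± 0.25 at 90 days, and Urod was -0.08 ± 0.17 and 0.11 ± 0.17. Their limma adjusted p-values were 0.9999 at 28 days and 0.834 and 0.854 at 90 days. Uros was even in the 90-day vehicle mice, between 9.38 and 9.61, and in each other group it had 1 or more mice above 10: 10.19 and 10.63 in the 28-day vehicle mice, 10.62 in the 28-day PB mice and 10.36 in the 90-day PB mice. The second Uros probe set, 1440535_at, gave 0.06 at 28 days and 0.11 at 90 days, so the Uros probe sets differ in sign at 28 days. The second Urod probe set, 1417206_at, gave 0.0001 at 28 days and 0.20 at 90 days.

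Cpox, the oxidase that makes protoporphyrinogen, had the smallest p of the members at 90 days. The 90-day vehicle mice were close together at 8.98, 9.05, 8.73, 9.06 and 8.92, while the PB mice read 8.95, 8.84, 8.08, 8.37 and 7.94. Of the 5 treated mice 3 lay below every vehicle mouse, and the other 2 lay among them. The change was -0.51 ± 0.26 (SE; 95% confidence interval -1.06 to 0.04), or 0.702 times the vehicle level, with an unadjusted p of 0.0671 and a limma adjusted p of 0.816. It was -0.42 without 28-day PB replicate 5 and 90-day PB replicate 3, the arrays that stood apart, and -0.26 with the first principal component as a covariate. A second probe set, 1422493_at, gave -0.31 at 90 days and followed the first with r = 0.90 over the 20 arrays, and the third, 1440747_at, was above the filter on only 4 arrays.

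At 28 days the sign of the Cpox change on the main probe set depended on 1 mouse. The vehicle mice read 8.46, 8.61, 7.92, 8.46 and 8.78, and the PB mice 8.87, 8.35, 8.58, 8.88 and 7.32. The last of these, replicate 5, was the lowest of all 20 mice. The change was -0.05 ± 0.26 with it and 0.22 ± 0.21 without it, and neither passed the limma threshold. The gap from replicate 5 to the next mouse was 0.66 of the group's range, under the 0.71 that Dixon's outlier test asks of 5 values. The second probe set, 1422493_at, gave -0.24 at 28 days with all mice.

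Ppox and Fech, which complete the ring, had changes smaller than their standard errors. Ppox was -0.09 ± 0.16 at 28 days and 0.10 ± 0.16 at 90 days, and its second probe set gave 0.16 and 0.09. The third Ppox probe set, 1448065_at, was above the filter on 2 arrays and was not tested. Fech was 0.10 ± 0.15 at 28 days and -0.12 ± 0.15 at 90 days, with limma adjusted p of 0.9999 and 0.837. Its 4 probe sets differed in sign at 28 days, at 0.10, 0.14, -0.30 and 0.09, so that no direction can be given to Fech at that time. Probe set 1427696_at ran against the main one over the arrays, with r = -0.68, and read 4.62 on average, little above the 25th percentile of the arrays, 3.96 to 4.26.

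**Figure D3:**
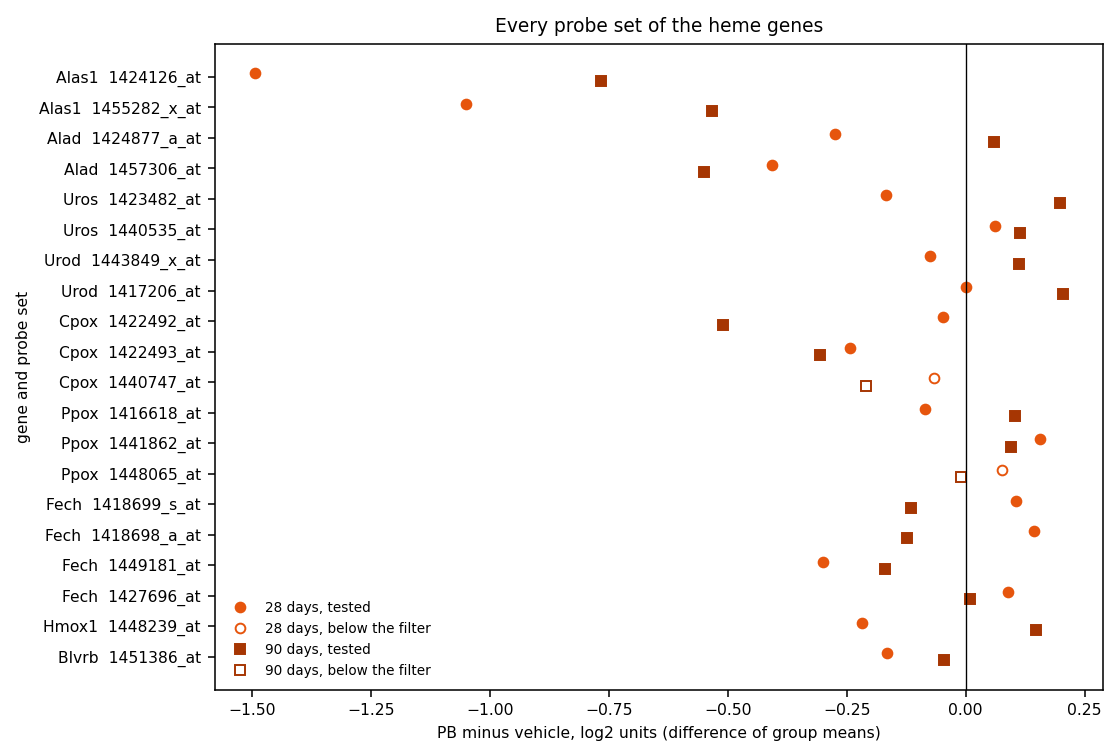
PB minus vehicle in log2 units for each of the 20 probe sets of the heme genes at 28 days (circles) and 90 days (squares), with open symbols for the 2 probe sets that did not pass the filter on dim values. Both Alas1 probe sets lie far to the left at 28 days, at -1.49 and -1.05, and the probe sets of Alad, Uros, Ppox and Fech fall on both sides of 0 within a gene.

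When the 18 probe sets that passed the filter were tested singly among 28917 probe sets, 0 of 18 were called at either duration, against 0.038% of all at 28 days and 0.0795% at 90 days. The limma adjusted p-values of the 18 were 0.9999 at 28 days and between 0.833 and 0.989 at 90 days.

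Neither breakdown gene passed the test with treatment. Hmox1 was -0.22 ± 0.19 at 28 days and 0.15 ± 0.19 at 90 days, with limma adjusted p of 0.9999 and 0.837. Blvrb, a biliverdin and flavin reductase, was -0.16 ± 0.29 at 28 days and -0.05 ± 0.29 at 90 days, with adjusted p of 0.9999 and 0.962. Blvrb reached its highest readings, 11.97 and 11.89, in 28-day PB replicate 5 and 28-day vehicle replicate 3.

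**Figure D4:**
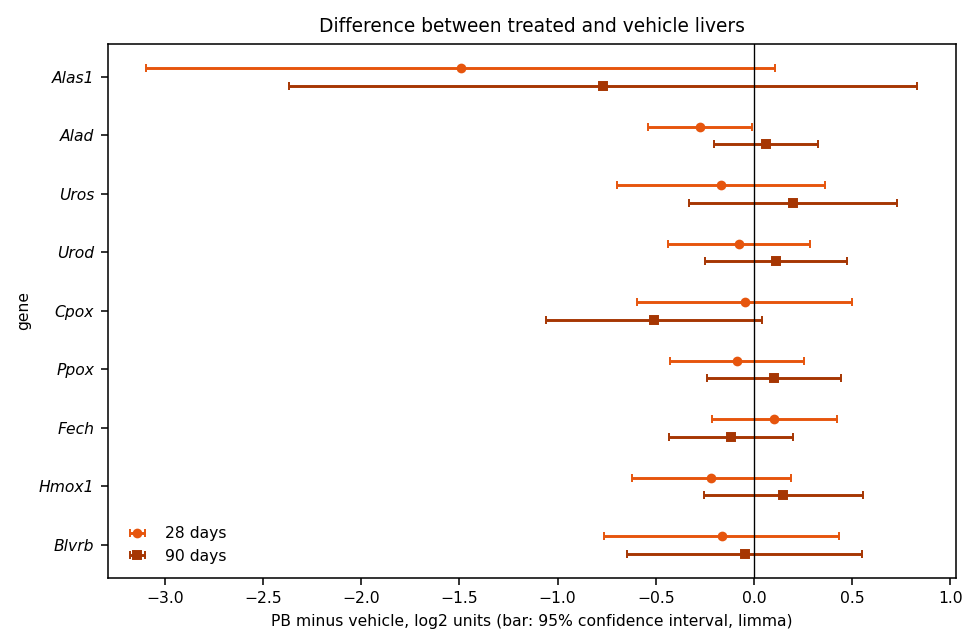
PB minus vehicle in log2 units for the 9 heme genes at 28 days (circles) and 90 days (squares), with 95% confidence intervals from the limma fit of all 4 groups. The interval of Alas1 at 28 days, from -3.09 to 0.11, and its 90-day interval are the widest; that of Alad at 28 days is the only one that leaves out 0, before adjustment over all genes.

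The intervals show what sizes of change the 5 mice per group leave possible. Without Alas1, the 8 intervals at 28 days lay between -0.76 (the lower bound of Blvrb) and 0.50 (the upper bound of Cpox). At 90 days they lay between -1.06 (Cpox) and 0.73 (Uros). A doubling, which is 1 log2 unit, was therefore outside the 95% interval of all 8 genes at both durations, and a fall of 1 log2 unit was inside it only for Cpox at 90 days. For Alas1 the upper bounds were 0.11 at 28 days and 0.83 at 90 days, so a doubling was outside its intervals too, while a fall of 1 log2 unit was inside both. These intervals are for each gene alone and are not adjusted for the number of genes. They are those of the probe set with the highest mean for each gene, and other probe sets may leave larger changes possible. Alad probe set 1457306_at changed by -0.55 at 90 days, with SDs of 0.61 in vehicle and 0.81 in PB mice. Fech probe set 1449181_at changed by -0.30 at 28 days, with SDs of 0.51 and 0.92. Their intervals are not given here.

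Between the vehicle groups, Hmox1 had the smallest p of the members. The vehicle mice read 6.28, 5.90, 6.14, 6.27 and 6.36 at 28 days and 6.22, 5.33, 5.51, 5.22 and 6.04 at 90 days. Of the 5 mice at 90 days 3 lay below every mouse at 28 days. The change was -0.52 ± 0.19 (SE), with an unadjusted p of 0.0141 and a limma adjusted p of 0.636, and 0 of 9 members and 0% of all genes were called in this comparison, while 3.66% of all genes were lower before adjustment at that level of p. Beside it stood the markers of Kupffer cells, the liver macrophages that take up old red cells and express Hmox1: 13 of 13 were below 0, with a median of -0.32 beside -0.03 over all genes. The mean level over these 13 markers ranged from 7.17 to 8.36 in the 28-day vehicle mice and from 6.84 to 7.92 in the 90-day vehicle mice, and their part in the Hmox1 reading was not tested. With treatment most of the same 13 markers had the opposite sign to Hmox1. At 28 days 11 of 13 were above 0 and 2 below, against 50.4% of all genes below 0, with a median of 0.17, where Hmox1 was -0.22. At 90 days 11 of 13 were below 0, against 43.8% of all genes, with a median of -0.25, where Hmox1 was 0.15. The 13 are markers of 1 cell type read on the same arrays, so these counts are a description. Between the vehicle groups Cpox was higher at 90 days, by 0.50 ± 0.26 (unadjusted p = 0.0713, limma adjusted p = 0.636), with 4 of 5 mice at 90 days above every mouse at 28 days. Age, duration of dosing and any difference in handling between the 2 vehicle groups cannot be told apart. The vehicle groups also differed in their scores on the first principal component, which is described in the next paragraph. These ran from -39.8 to 22.6 at 28 days and from 11.7 to 34.0 at 90 days. The part of the component in the readings of Hmox1, Cpox and the Kupffer cell markers was not tested.

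Much of the variation of 5 members between mice ran along the first principal component, which held 55.6% of the variance of all genes tested. Of the arrays, 28-day PB replicate 5 and 90-day PB replicate 3 lay farthest along it. Over the 20 arrays Uros (r = -0.83, rho = -0.55), Urod (r = -0.67, rho = -0.59) and Blvrb (r = -0.74, rho = -0.58) were higher toward these arrays. Cpox (r = 0.83, rho = 0.74) and Fech (r = 0.84, rho = 0.72) were lower there. All 5 passed in 9 relations after Benjamini-Hochberg adjustment of permutation p-values, for r between 9e-05 and 0.00241 and for rho between 0.00221 and 0.0225; the unadjusted p of Fech, 1e-05, is the smallest that the permutations can give. Without the 2 farthest arrays r was -0.69, -0.53, -0.58, 0.66 and 0.71 in the same order. After the group means were removed r was -0.85, -0.72, -0.87, 0.80 and 0.86.

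Such relations were common in these arrays, so they do not mark out the heme genes. The median size of r with the component over all 16054 genes was 0.62, and 44.7% of genes had an r at least as large as the lowest of the 5, beside 55.6% of the members. Alas1 had no relation with the component past the threshold, with r = 0.11 and rho = 0.09 (permutation p = 0.66 and 0.689). Alad, Ppox and Hmox1 also had no adjusted p under 0.05 for r, at r = 0.27, 0.21 and -0.36, although rho passed for Alad at 0.49 (adjusted permutation p = 0.0396) and for Hmox1 at -0.50 (adjusted permutation p = 0.0395). Without the 2 arrays, the 28-day changes of Uros, Blvrb and Fech were -0.39, -0.42 and 0.22, each larger in size than with them, and the limma adjusted p was 0.972 for each. Which property of the samples the component reflects was not tested.

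**Figure D5:**
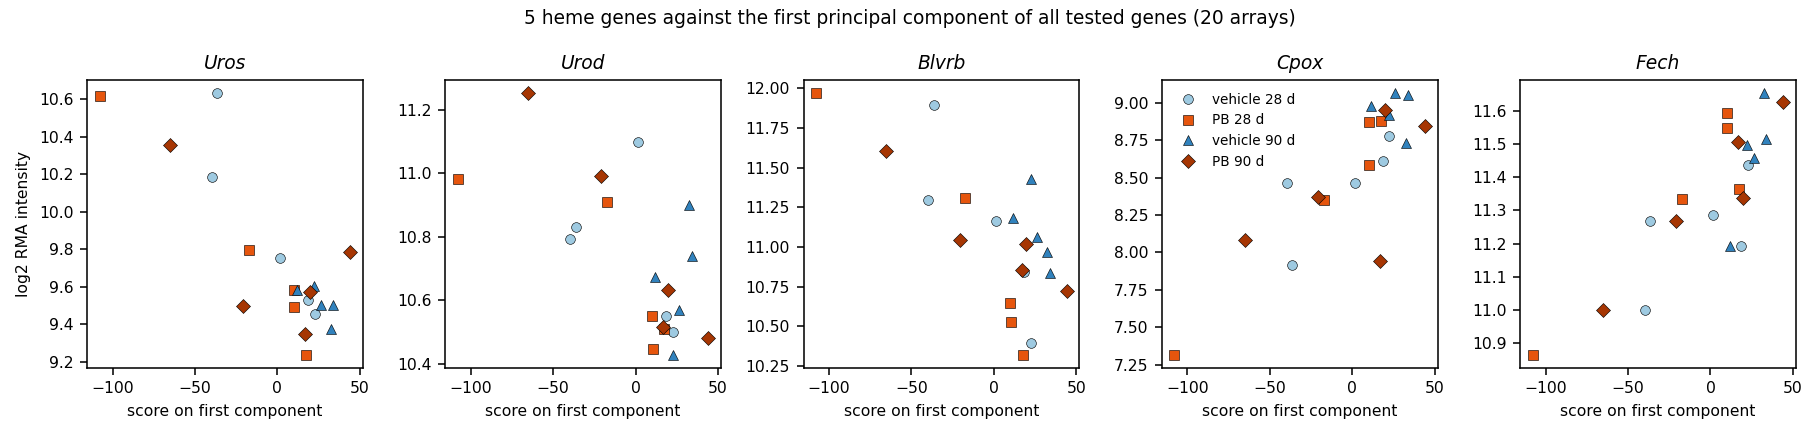
Log2 RMA intensity of Uros, Urod, Blvrb, Cpox and Fech (vertical axes) against the score of each of the 20 arrays on the first principal component of all tested genes (horizontal axes, no unit), with a symbol for each group. The first 3 genes fall and the last 2 rise along the score, and the 2 arrays farthest to the left are PB mice, 1 at each duration.

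Among themselves the members formed 36 pairs, of which 10 passed for r after Benjamini-Hochberg adjustment and only Uros with Blvrb passed for r and rho together. That pair had r = 0.84 and rho = 0.75 (adjusted permutation p = 0.00036 and 0.00612), and r = 0.68 without the 2 arrays farthest from the median of Uros. All 10 pairs, Uros with Blvrb among them, joined 2 of the 5 genes that followed the first principal component. The share of such pairs over all genes was not computed. No pair with Alas1, the first enzyme, passed: its r with the other 8 members lay between -0.29 for Ppox and 0.34 for Cpox.

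The rest of the pathway gave no calls either. Of 73 other genes for heme supply, transport, breakdown, regulation, iron and heme enzymes, 63 were tested, and 0 were called at 28 days, at 90 days or on average, with lowest limma adjusted p of 0.9999, 0.816 and 0.243. At an unadjusted p under 0.05, 2 were higher and 1 lower at 28 days, 2 were higher and 3 lower at 90 days, and 6 were higher and 6 lower on average. The shares of all genes at that level were 1.83% higher and 1.03% lower at 28 days, 3.15% and 1.38% at 90 days, and 4.24% and 2.37% on average. Each of these counts was at or above its share of the 63 genes, at 28 days as well as at 90 days and on average. The higher count at 90 days was about level with its share. This was not tested as a set. The 28-day genes were Mafk (0.36 ± 0.12), a small partner of BACH1, Cyb5a (0.18 ± 0.07), the heme protein cytochrome b5, and Hamp (-0.76 ± 0.36), the iron hormone hepcidin. The 90-day genes were Cyb5a (0.21 ± 0.07), Hamp2 (1.08 ± 0.43), a second hepcidin gene, Tmem14c (-1.25 ± 0.50), a mitochondrial porphyrin transporter, Bach1 (-0.49 ± 0.21) and Tdo2 (-0.23 ± 0.09), a heme enzyme of tryptophan breakdown. On average the 6 higher genes were Tspo2, Pgrmc1, Hmox2, Mafk, Hamp2 and Cyb5a. The 6 lower on average were Tmem14c, Abcg2, Nfe2l2, Hamp, Tdo2 and Suox. Cyb5a had the smallest p of the 63 averaged over both durations, at 0.19 with that limma adjusted p of 0.243.

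Genes that share a step with a member were read beside it. Hmox2, the constitutive heme oxygenase, was 0.20 ± 0.13 at 28 days and 0.24 ± 0.13 at 90 days, and Blvra, the main biliverdin reductase of adults, was -0.003 ± 0.33 and 0.19 ± 0.33, all with limma adjusted p over the threshold. Alas2, the red cell form of the first enzyme, was -0.14 ± 0.19 and 0.13 ± 0.19. Nr1i3 was 0.002 ± 0.27 and 0.12 ± 0.27, Ppargc1a -0.42 ± 0.51 and 0.11 ± 0.51, Nr1d1 0.08 ± 0.34 and -0.51 ± 0.34, and Tfrc, the transferrin receptor, -0.02 ± 0.37 and 0.12 ± 0.37. Of 15 listed erythroid markers, which bear on heme genes through red cell precursors, 8 were tested. Of these 0 were called, beside 0.0498% of all genes at 28 days and 0.143% at 90 days. Below 0 lay 2 of the 8 at 28 days and 1 at 90 days, against 50.4% and 43.8% of all genes, with medians of 0.06 and 0.12. Their array means, from 5.72 to 6.34, include Alas2, which read 10.38 on average. The part of these markers in the heme genes was not tested. Of 8 tested neutrophil and lymphocyte markers 1 was called at 90 days, beside 0.143% of all genes. It was S100a8, at 6.28 ± 1.13 with a limma adjusted p of 0.0163, while its partner S100a9 was -0.0078 ± 0.32. The rise was not in every mouse: S100a8 read 13.21, 12.76, 12.97, 13.03 and 5.42 in the 90-day PB mice. The 90-day vehicle mice read from 4.99 to 5.64. In 28-day PB replicate 5 S100a8 read 7.80, beside 11.73 to 12.79 in the other PB mice of that group. At 28 days S100a8 was at 5.06 ± 1.13, with a limma adjusted p of 0.248, and S100a9 at -0.15 ± 0.32. No member was called at either duration beside it.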

How the data were processed

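The deposited table held log2 intensities that the authors made with RMA, per the submitters' processing notes; version and genome build are not given in the sources used here. Distributions of the arrays were not equal as deposited: their 75th percentile ran from 6.62 to 7.17. The values of 20 arrays were used as deposited. Of 45037 probe sets, 34945 had 1 symbol, 932 several and 9160 none, and 34741 Entrez identifiers matched the reference with 0 symbols changed. The probe set with the highest mean stood for its gene. A gene was tested above the array's 25th percentile on at least 5 arrays (16054 of 18193 genes; all 9 members, and 18 of their 20 probe sets). limma 3.58.1 in R 4.3.3 fitted 1 mean per group with an intensity trend, 16 residual degrees of freedom and two-sided tests, after the fit was tested on simulated data. Correlations used 100000 permutations (scipy 1.17.1, Python 3.11.15); figures used matplotlib 3.10.9. Genes named were the members, of each related list the 2 with the smallest p per duration and 9 set genes, of each marker list the brightest and the one with the smallest p, and the 5 genes most like Alas1; not all were printed. Members and lists were chosen with earlier results of these data known. Alternatives covered filter, probe set choice, variance prior, scaling, array weights, replicate block and each array left out. The number of arrays sets the precision.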

Additional observations from a re-analysis of the deposited data

How the results depend on the processing

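No member was called at any comparison under any alternative run, and the signs of Alas1, Alad and Hmox1 at 28 days and of Alas1, Cpox, Ppox and Hmox1 at 90 days held in all of them for the probe set, or mean of probe sets, that stood for the gene. So did that of Fech at 28 days, although its other probe sets singly gave 0.14, -0.30 and 0.09. The 8 genes called at 28 days became 17 with array weights, 17 with the first principal component as a covariate and 4 with only the groups compared; the cause was not tested beyond the smaller sample of the last. At 28 days the sign turned for Ppox with the mean of probe sets (0.049), for Urod without _x_at and _s_at probe sets (0.00012), and for Cpox with cyclic loess (0.018), centring on the 75th percentile (0.0012), array weights (0.18), both outlying arrays left out (0.22) and the component as a covariate (0.053). At 90 days it turned for Alad with the mean of probe sets (-0.24), Blvrb with centring (0.047), Urod with both arrays out (-0.0062), and Urod (-0.018), Uros (-0.051) and Fech (0.020) with the covariate. For Alas1 between vehicle groups it turned with array weights (0.082). Removing 1 array at a time gave 28-day ranges of -0.39 to 0.013 for Uros, -0.15 to 0.011 for Urod, -0.18 to 0.22 for Cpox, -0.18 to 0.062 for Ppox and -0.42 to 0.030 for Blvrb. The 90-day ranges were -0.0089 to 0.10 for Alad, -0.0062 to 0.19 for Urod and -0.18 to 0.037 for Blvrb, and that of Alas1 between vehicle groups was -0.59 to 0.51. Alas1 ran from -2.04 to -1.20 at 28 days and from -1.32 to -0.22 at 90 days, and genes called from 6 to 10, 17 to 26 and, on average, 26 to 35. Centring moved the median of all genes to 0.13 at 90 days and to -0.15 between vehicle groups. Removal of both arrays together and the covariate were chosen after results were known.

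With the replicate number as a block, 8, 22 and 29 genes were called at 28 days, at 90 days and on average, and 0 members. Arrays of the same number were not alike as a rule: over 30 such pairs the correlation ran from -0.69 to 0.61, with a median of -0.08 and 9 above 0.1. Pairs of different numbers were not compared, so a link between mice of the same number was not tested.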
